A study of Rattus norvegicus with 105 samples.

Results

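Frontal cortex of rats whose ventral hippocampus had been lesioned was compared with that of sham-operated rats. The comparison takes the 22 arrays, of 105 in the series, whose labels name the ventral hippocampal (VH) lesion experiment: 12 labelled lesion and 10 labelled sham. All 22 carried total RNA of rat (Rattus norvegicus) frontal cortex, and the sources used here give neither strain, sex and age nor the lesion method and the time since surgery. The other arrays of the series belong to an experiment in which the ventral hippocampus was disrupted with tetrodotoxin (TTX), with 20 arrays, and to one with chronic neuroleptics, with 63. Whether every array stands for its own rat is not in the labels, so the p-values below reflect variation among arrays that could be partly technical.

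The ventral hippocampus sends direct excitatory projections to the medial and orbital parts of the frontal cortex, where they contact both pyramidal neurons and inhibitory interneurons. Damage to it in rats is widely used as a model with features of schizophrenia, in which frontal dopamine and glutamate function is altered. Immediate early genes such as Egr1 and Fos are switched on in cortical neurons within minutes of synaptic input, ion channels and calcium sensors set how readily the neurons fire, and peptides such as neuropeptide Y and somatostatin are made by interneurons that inhibit dendrites. These groups of genes, the synapse and the cell types of the cortex are therefore described below.

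Levels are log2 intensities, quantile-normalised over the 22 arrays, and differences are lesion minus sham on the log2 scale, with a standard error (SE) from limma. The labelled tissue was checked against marker genes. The glutamate transporter of cortical projection neurons, Slc17a7, lay between 14.21 and 14.89 on lesion arrays and between 14.18 and 15.01 on sham arrays, and the neuronal transcription factor Neurod6 between 13.30 and 13.56 on lesion arrays and between 13.10 and 13.74 on sham arrays. The striatal receptors Drd2 and Adora2a and the choroid plexus gene Ttr were among the 40% of probe sets with the lowest means, which were not tested. The other striatal markers were in the tested range. Ppp1r1b had a mean of 12.52 on lesion and 12.61 on sham arrays, above 86.5% of the probe sets, and Rgs9 means of 9.31 and 9.19. Meningeal and fibroblast markers were uneven within both groups. The growth factor gene Igf2 ran from 10.55 to 13.75 on lesion arrays and from 10.48 to 13.64 on sham arrays, and the collagen gene Col1a1 from 9.18 to 11.21 on lesion arrays and from 7.60 to 11.21 on sham arrays.

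Some arrays stood apart before any comparison. Lesion replicates 1 and 7 and sham replicate 9 had a low mean correlation with the rest. Of variance, 16.05% lay on the first principal component, where lesion against sham accounted for 0.166%. Sample number order, as a first set of 11 arrays (36 to 46) and a second set of 11 (47 to 57), accounted for 37.7%. Lesion replicate 7 lay at 50.67 on this component and the other arrays between -16.04 and 10.31. On component 2, with 10.65% of variance, lesion against sham accounted for 10.8% and the sets for 8.99%. On component 3, with 9.74% of variance, lesion against sham accounted for 14.9% and the sets for 5.91%. Each set of arrays held 6 lesion and 5 sham arrays. Differences within the sets are given beside the pooled ones for some genes and lists. For the other named genes they are not given, and agreement between the sets is not shown. Lesion replicates 1 to 4, with sample numbers 36, 37, 42 and 43, formed a second pattern that is described with the genes concerned, and values without these 4 arrays are an alternative chosen after seeing the data. They are given for each gene named in the text at an unadjusted p under 0.05 that they move by over 1.5 times. Lesion arrays varied more than sham arrays, with a median SD per probe set of 0.21 against 0.17 and a larger SD in lesion for 68.3% of the probe sets.

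No probe set differed past the threshold between lesion and sham cortex. Limma called 0 of 18625 probe sets (0%) at an adjusted p under 0.05, and the smallest adjusted p was 0.394. At an unadjusted p under 0.05 there were 1454 probe sets (7.81%), of which 793 were higher (4.26%) and 661 lower (3.55%) after the lesion. With 1 probe set for each of 10152 genes, 811 (7.99%) were at that level: 495 were higher (4.88%) and 316 lower (3.11%), and the median difference over all of them was 0.0038. At any p, 5251 of the 10152 genes (51.7%) were higher and 4901 lower. The median SE of a difference was 0.085, and in simulated arrays of the same size limma recovered 16% of probe sets changed by 0.25, 78% of those changed by 0.5 and 100% of those changed by 1. The simulation changed 50 probe sets at each size and drew independent normal noise, with the same SD in both groups. It held no effects shared by the probe sets of an array and no subgroup of arrays, so recovery in the real arrays may be lower. With 0 probe sets called, all genes below are given as values, and none passed the test unless a sentence says so.

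Glo1, glyoxalase 1, which detoxifies the glycolytic by-product methylglyoxal, had the smallest p on the higher side. Its level on lesion arrays ran from 14.14 over a median of 14.21 to 14.34, against 14.00, 14.04 and 14.11 on sham arrays. Every lesion array lay above every sham array. The difference was small, 0.17 ± 0.035 (SE, n = 12 and 10) or 1.12-fold, with adjusted p = 0.394, and it was 0.16 in the first and 0.18 in the second set of arrays. Glo1 was the 1 tested probe set of 18625 (0.00537%) in which the groups did not overlap. On the deposited scale, before quantile normalisation, it read 17555 to 21541 on lesion arrays and 16386 to 17786 on sham arrays, so the ranges met at their edges, while the 63 neuroleptic arrays spanned 15087 to 21310.

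Rasa4, which encodes a calcium-dependent activator of the GTPase activity of Ras, lay below the tested range and was chosen after its values were seen. On lesion arrays its lowest, median and highest levels were 8.17, 8.55 and 9.00, against 6.67, 7.47 and 8.11 on sham arrays. After quantile normalisation the groups did not overlap, as in 2 of all 31042 probe sets, the other being Glo1. The difference was 1.003, or 2.00-fold, and the same size in both sets of arrays, 1.01 and 0.997. Its mean ranked above 30.6% of the probe sets, within the lowest 40% that were left out of the tests. When limma was run on all 31042 probe sets, Rasa4 was the 1 probe set called, with adjusted p = 0.0156. Deposited intensities were 270 to 498 on lesion arrays and 101 to 278 on sham arrays, while the 20 arrays of the TTX experiment ran from 114 to 470 and the 63 neuroleptic arrays from 52.9 to 495. On that scale the lowest lesion value lay just under the highest sham value, and the arrays of the other experiments covered nearly the whole range of both groups. The median was 207 on sham arrays, 268 in the TTX experiment and 267 in the neuroleptic one.

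Arnt, the partner subunit of hypoxia-inducible and aryl hydrocarbon receptors, stood at 9.13, 9.36 and 9.58 (lowest, median and highest) on lesion arrays and at 8.47, 8.98 and 9.31 on sham arrays. Of 12 lesion arrays 8 lay above all sham arrays, and the difference was 0.42 ± 0.090. Nsun4, which methylates mitochondrial ribosomal RNA, lay at 10.08, 10.32 and 10.55 on lesion arrays and at 9.89, 10.12 and 10.24 on sham arrays. Here 11 of 12 lesion arrays lay above all sham arrays, with a difference of 0.25 ± 0.054. Completing the 12 higher genes of smallest p were Amacr, a racemase of branched-chain fatty acids (0.27 ± 0.057), the nuclear kinase Vrk1 (0.31 ± 0.069), the apoptosis-related gene Pdcd5 (0.22 ± 0.050), Map3k7, the kinase TAK1 of cytokine signalling (0.26 ± 0.060), the microtubule plus-end protein Mapre1 (0.21 ± 0.052), Cdca4 (0.34 ± 0.083), Plpp4 (0.26 ± 0.065), Ccdc137 (0.29 ± 0.071) and Zfp867 (0.44 ± 0.11). In all 12 every lesion array was above the sham mean. A second probe set of Vrk1 gave 0.29 ± 0.12 and a second one of Mapre1 0.11 ± 0.044, both higher.

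**Figure D1:**
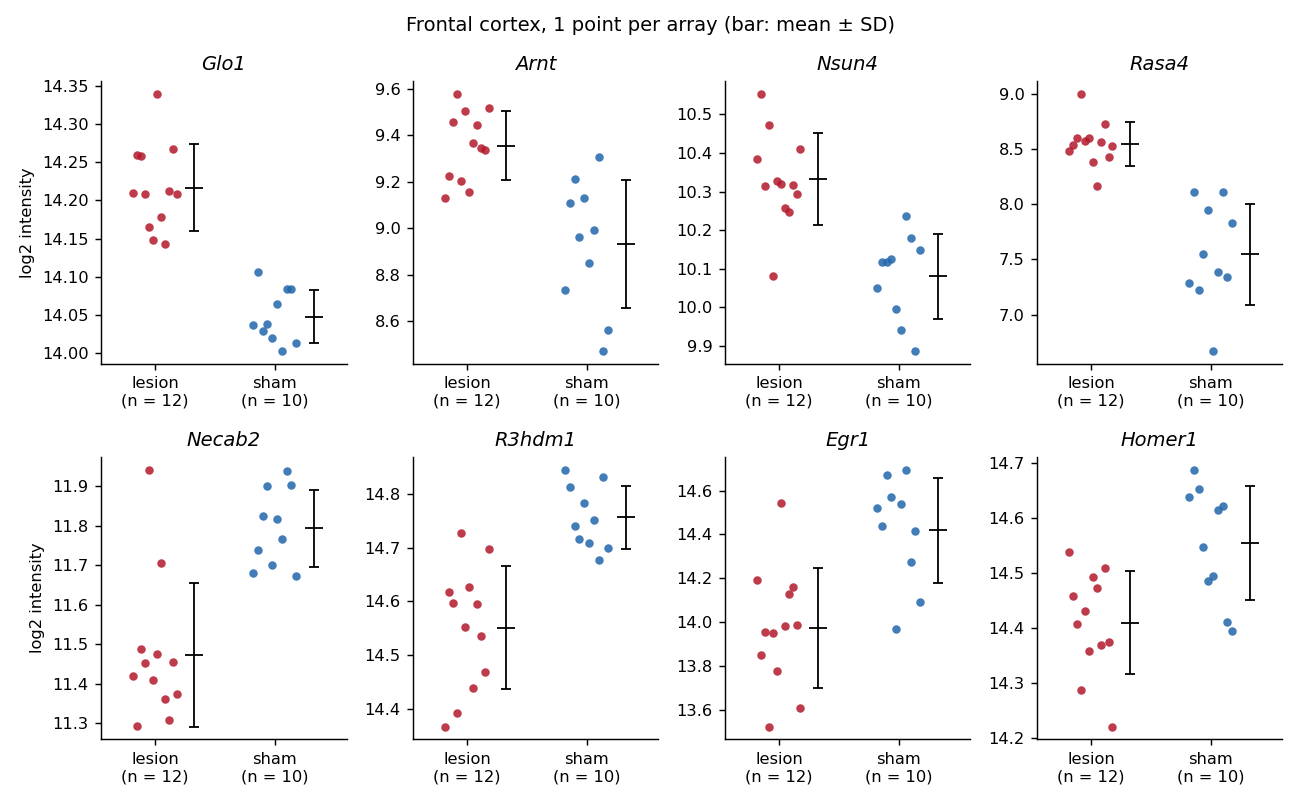
Log2 intensity of 8 genes on each lesion array (red, n = 12) and each sham array (blue, n = 10), with the mean and SD beside the points. Quantile-normalised Glo1 and Rasa4 do not overlap between the groups, and 2 lesion arrays of Necab2, at 11.71 and 11.94, are not below the sham arrays.

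On the lower side the smallest p belonged to Necab2, a neuronal calcium-binding protein of cortical and striatal neurons. Its levels were 11.29, 11.44 and 11.94 on lesion arrays, against 11.67, 11.79 and 11.94 on sham arrays. Of 12 lesion arrays 10 lay below all sham arrays, lesion replicate 8, at 11.71, lay within the sham range, and lesion replicate 5, at 11.94, lay at its top. The difference was -0.32 ± 0.066 with adjusted p = 0.394, and -0.27 and -0.37 in the 2 sets of arrays. Without lesion replicate 5 it was -0.36 with adjusted p = 0.00941, the 1 call among the fits that each left out a single array. Leaving out that array was 1 of 22 such fits, and the other 21 called 0 probe sets.

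R3hdm1, a gene whose intron holds the neuronal microRNA miR-128-1, lay at 14.37, 14.57 and 14.73 on lesion arrays and at 14.68, 14.75 and 14.84 on sham arrays. The difference of -0.20 ± 0.047 was seen in 12 of 12 lesion arrays. The 12 lower genes of smallest p also included the zinc finger gene Glis2 (-0.33 ± 0.076), the cell cycle repressor E2f4 (-0.25 ± 0.062), the splicing factor Sf1 (-0.19 ± 0.047), the nuclear receptor co-repressor Ncor1 (-0.29 ± 0.075) and the co-activator Ncoa3 (-0.39 ± 0.10). The remaining ones were Egr1, given below, the axon initial segment adhesion gene Nfasc (-0.47 ± 0.11), the ribosomal protein gene Rpl39 (-0.78 ± 0.20), the Wnt pathway formin Daam2 (-0.39 ± 0.11) and the neuronal collagen Col25a1 (-0.34 ± 0.096, and -0.21 ± 0.092 without lesion replicates 1 to 4). Some of these differences held for 1 probe set and not for a brighter one of the same gene. The brightest of 5 probe sets of Nfasc differed by -0.0072 ± 0.10, that of Ncor1 by -0.019 ± 0.052 and that of Ncoa3 by 0.021 ± 0.11. Of the 2906 genes with several tested probe sets, 1582 (54.4%) had the same sign in all of them. Among the 196 of these whose brightest probe set was at an unadjusted p under 0.05, 144 (73.5%) did. Nfasc, Ncor1 and Ncoa3 are not among the 196.

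Most immediate early transcription factors had a lower mean after the lesion. Of 19 tested members 16 were lower and 3 higher, with a median of -0.13 beside 0.0038 for all genes, and 4 were lower at an unadjusted p under 0.05, where 3.11% of all genes were. The 4 at that level were Egr1, Egr2 and Egr4, zinc finger factors of 1 family, and Nr4a3. Egr1 lay at 13.52, 13.97 and 14.54 on lesion arrays and at 13.97, 14.48 and 14.70 on sham arrays. Of 12 lesion arrays 6 lay below all sham arrays, the difference was -0.45 ± 0.11 (adjusted p = 0.404), and it was -0.56 and -0.34 in the 2 sets of arrays. Egr2 lay at 7.88, 8.83 and 10.29 on lesion arrays and at 8.08, 9.77 and 10.45 on sham arrays, with a difference of -0.77 ± 0.30 and a wide overlap. Egr4 was lower in 11 of 12 lesion arrays, at -0.22 ± 0.090.

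The RefSeq promoters of Egr1 and Egr2 (250 bases before to 50 after the start, assembly GRCr8) are shown because Egr2 had the largest difference of the list and Egr1 the smallest p, and capitals mark the serum response element (CArG box) that serum response factor is known to bind in such genes. Both strands were searched, and the motif occurred in 548 of 33469 promoters of that length (1.64%).
Egr1, chr18:26736828-26737127, plus strand: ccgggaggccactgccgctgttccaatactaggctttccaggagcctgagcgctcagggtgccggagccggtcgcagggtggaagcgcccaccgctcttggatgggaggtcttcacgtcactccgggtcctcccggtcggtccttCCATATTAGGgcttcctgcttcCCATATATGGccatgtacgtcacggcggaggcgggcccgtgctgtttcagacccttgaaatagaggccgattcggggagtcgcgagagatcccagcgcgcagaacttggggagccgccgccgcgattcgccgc
Egr2, chr20:21054392-21054691, minus strand: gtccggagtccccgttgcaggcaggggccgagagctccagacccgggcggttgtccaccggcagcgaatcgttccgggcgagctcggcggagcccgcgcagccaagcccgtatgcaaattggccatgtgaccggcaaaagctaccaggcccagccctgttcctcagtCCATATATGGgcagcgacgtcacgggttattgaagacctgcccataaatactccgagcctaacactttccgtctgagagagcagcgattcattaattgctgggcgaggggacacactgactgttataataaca
The Egr1 window held 2 such motifs and the Egr2 window 1. Those of Egr4, Fosb, Junb, Nr4a1 and Nr4a2 held none. A match describes the sequence and is no evidence of binding in these samples.

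Not every activity gene shared the direction within both sets of arrays. The nuclear receptor Nr4a3 differed by -0.51 ± 0.18, but by -1.06 in the first set and by 0.036 in the second. A second probe set of Nr4a3 gave -0.37 ± 0.18. Fos was at -0.30 ± 0.35, Nr4a1 at -0.30 ± 0.18 and Arc, whose protein moves to active synapses, at -0.13 ± 0.23, none of them at an unadjusted p under 0.05. Leaving out lesion replicates 1 to 4, Fos was at -0.60 ± 0.37, Nr4a1 at -0.32 ± 0.21 and Arc at -0.26 ± 0.25, again none at that level. Of the 19 members 8 were lower and 1 higher in both sets, and the list median was -0.10 in the first set and -0.15 in the second. Without lesion replicates 1 to 4 the median was -0.16. Among the slower activity-induced effectors and MAP kinase feedback genes, 11 of 20 were higher and 9 lower, with a median of 0.030: Homer1, Etv5 (-0.22 ± 0.085) and Cpeb3 (-0.13 ± 0.049) were lower and Gadd45g (0.28 ± 0.12) higher at an unadjusted p under 0.05.

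Clock genes, several of which also respond to neuronal activity, had 14 of 20 members lower and a median of -0.074. Per2 lay at 11.63, 11.90 and 12.38 on lesion arrays and at 11.95, 12.23 and 12.69 on sham arrays, and differed by -0.30 ± 0.10. Per1 differed by -0.36 ± 0.15 and the repressor Bhlhe40 by -0.31 ± 0.13. The core activators Clock (-0.016 ± 0.057) and Bmal1 (-0.015 ± 0.082) lay near 0. Without the 4 arrays the list median was -0.011 and Bhlhe40 was at -0.11 ± 0.095, while Per2 kept -0.23 ± 0.12. The time of day of tissue collection is not given in the sources used here. Of 18 glucocorticoid receptor and response genes 16 were lower, at a median of -0.044, but 1 of them, Per1, was at an unadjusted p under 0.05, and the receptor Nr3c1 itself was at -0.14 ± 0.077.

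**Figure D2:**
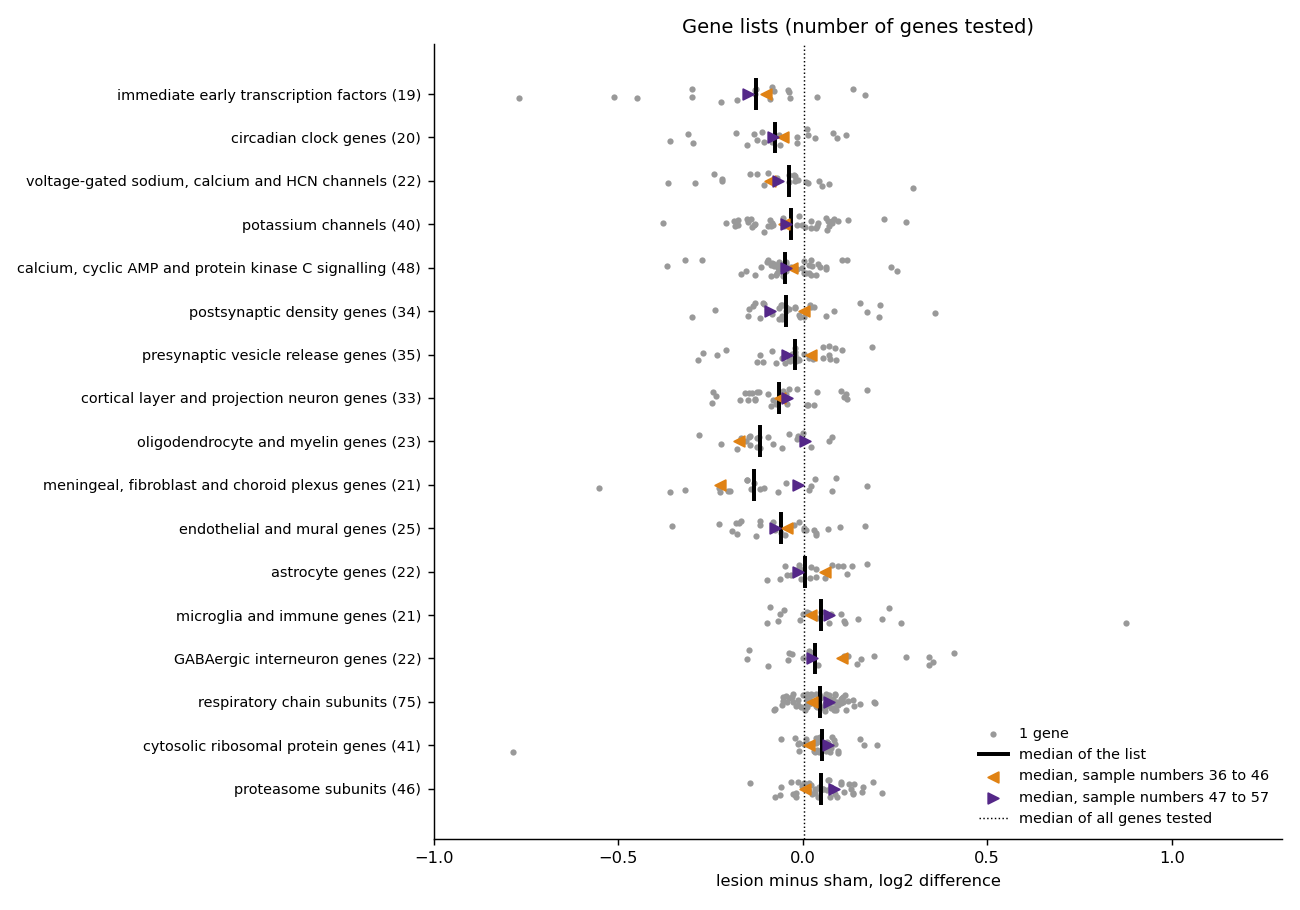
Lesion minus sham log2 difference of each tested gene (grey) in 17 gene lists, with the list median (black) and the medians within sample numbers 36 to 46 (orange) and 47 to 57 (purple). The dotted line is the median of all 10152 genes, 0.0038, below which both sets of arrays lie in lists such as immediate early, circadian, channel, calcium and cortical layer genes, and above which both lie in the microglial, interneuron, respiratory chain, ribosomal and proteasome lists. The proteasome median of the first set, 0.0064, lies close to the line.

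Ion channel genes that set membrane excitability had more members lower than higher. Of 22 sodium, calcium and HCN channel genes 16 were lower, with a median of -0.038, and 1 of the 22 was lower at an unadjusted p under 0.05, near the 3.11% of all genes. This was Hcn2, a subunit of the hyperpolarisation-activated cation channels, at 10.47, 11.02 and 11.29 on lesion arrays against 10.93, 11.27 and 11.71 on sham arrays. The groups overlapped, 5 of 12 lesion arrays lay below all sham arrays, and the difference was -0.36 ± 0.11. Of 40 potassium channel genes 23 were lower and 17 higher (median -0.033), with 5 lower and 1 higher at that level. Kcnd2, the pore of the dendritic A-type current, differed by -0.19 ± 0.057 in 12 of 12 lesion arrays. Kcnq5, an M-current subunit, differed by -0.18 ± 0.050, with 8 of 12 lesion arrays below all sham arrays. The modulatory subunit Kcnv1 (-0.21 ± 0.075), the auxiliary subunit Kcnab2 (-0.15 ± 0.060) and the G protein-gated channel Kcnj6 (-0.18 ± 0.072) were also lower, and the delayed rectifier Kcna6 was higher (0.28 ± 0.12). Without lesion replicates 1 to 4 Kcnv1 was at -0.11 ± 0.065, Kcnab2 at -0.082 ± 0.062 and Kcna6 at 0.14 ± 0.12. Second probe sets gave -0.067 ± 0.085 for Kcnd2 and -0.015 ± 0.15 for Kcnq5.

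Calcium and cyclic AMP signalling genes had 31 of 48 members lower and a median of -0.047. Besides Necab2, the nuclear kinase Camk4, which phosphorylates the transcription factor CREB, lay at 10.90, 11.51 and 11.98 on lesion arrays and at 11.53, 11.85 and 12.33 on sham arrays. Its difference was -0.37 ± 0.12, but a second probe set of similar brightness gave -0.089 ± 0.11. The calmodulin-dependent phosphodiesterase Pde1a was higher (0.25 ± 0.10). Of 15 regulators of G protein signalling, Rgs3 was at 0.15 ± 0.068 with its other probe sets at -0.0011 ± 0.11 and -0.015 ± 0.14, and Rgs4 at -0.12 ± 0.067, or -0.015 ± 0.050 without lesion replicates 1 to 4.

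At the synapse, 23 of 34 postsynaptic density genes were lower (median -0.044; 3 lower and 2 higher at an unadjusted p under 0.05) and 23 of 35 presynaptic release genes (median -0.021; 2 lower, 0 higher). Among all genes 3.11% were lower and 4.88% higher at that level, close to the 2 of 34 higher and the 2 of 35 lower here. Homer1, which tethers group I metabotropic glutamate receptors, lay at 14.22, 14.42 and 14.54 on lesion arrays and at 14.40, 14.58 and 14.69 on sham arrays. All 12 lesion arrays lay below the sham mean, 5 of them below every sham array, and the difference was -0.14 ± 0.049. All 5 probe sets of Homer1 were lower, from -0.030 ± 0.086 to -0.49 ± 0.19. The scaffold Grip2 (-0.24 ± 0.082) and the PSD-95 partner Dlgap1 (-0.14 ± 0.059) were lower too. Of 4 probe sets of Dlgap1 all were lower, from -0.087 ± 0.057 to -0.21 ± 0.087. The kinase anchor Akap5 (0.36 ± 0.15) and the scaffold Dlg2 (0.21 ± 0.093) were higher, and Dlg4, which encodes PSD-95, was at 0.085 ± 0.10. Without the 4 arrays Akap5 was at 0.17 ± 0.15 and Grip2 at -0.15 ± 0.086.

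On the presynaptic side the active zone organiser Rims1 lay at 11.43, 11.69 and 12.21 on lesion arrays, against 11.82, 12.04 and 12.26 on sham arrays, and 8 of 12 lesion arrays lay below all sham arrays. Its difference of -0.28 ± 0.081 was -0.46 in the first and -0.10 in the second set, and -0.19 ± 0.082 without the 4 arrays. Complexin 2, Cplx2, which clamps and promotes vesicle fusion, was at -0.27 ± 0.098 in 11 of 12 lesion arrays. Snap25 (-0.048 ± 0.045) and Vamp2 (-0.027 ± 0.053) lay near 0. Receptor subunits showed little: Grin1, the obligatory NMDA receptor subunit, was at -0.12 ± 0.059, while Grin2a (-0.18 ± 0.14), Gria1 (0.0036 ± 0.11) and Gria2 (-0.079 ± 0.086) lay within about 1 error of 0 or little beyond. Of 10 GABA receptor genes 5 were higher and 5 lower, and Gabra5, a subunit of extrasynaptic receptors, was at -0.22 ± 0.10. It differed by -0.44 in the first set of arrays and by -0.0054 in the second.

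Interneuron genes had more members higher than lower. Of 22 tested members 16 were higher, with a median of 0.033, and 4 were higher and 0 lower at an unadjusted p under 0.05, where 4.88% of all genes were higher. The list median was 0.11 in the first set of arrays and 0.025 in the second. The 4 genes at that level were Npy and Sst, which encode the peptides neuropeptide Y and somatostatin, Crhbp, which binds corticotropin-releasing hormone, and Slc32a1, the vesicular GABA transporter. In bulk tissue, fewer or more cells of a type and less or more RNA per cell cannot be told apart, here and for every cell type below. Sst lay at 13.20, 13.43 and 14.36 on lesion arrays and at 12.99, 13.22 and 13.44 on sham arrays, and 6 of 12 lesion arrays lay above all sham arrays. It differed by 0.34 ± 0.12, and by 0.20 ± 0.078 without the 4 arrays. Crhbp differed by 0.28 ± 0.10 and by 0.25 ± 0.10 without them, and Slc32a1 by 0.16 ± 0.072 and by 0.10 ± 0.078 without them. The enzyme Gad1 (0.017 ± 0.051) and parvalbumin, Pvalb (0.11 ± 0.091), lay nearer 0. Penk, the enkephalin precursor, made in cortex by a subset of interneurons and in striatum by projection neurons, lay at 12.15, 12.56 and 13.41 on lesion arrays and at 11.91, 12.25 and 12.41 on sham arrays. It differed by 0.39 ± 0.11, with 8 of 12 lesion arrays above all sham arrays, and by 0.28 ± 0.086 without the 4 arrays. Of 14 striatal neuron genes 7 were higher and 7 lower (median -0.0038), and the striatal markers Ppp1r1b (-0.094 ± 0.087) and Rgs9 (0.12 ± 0.16) lay near 0. The dopamine receptor Drd1 was at 0.45 ± 0.19, but at 0.0019 in the first set of arrays and 0.90 in the second.

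Projection neuron and layer markers had 24 of 33 members lower and a median of -0.064, with Pou3f1 (-0.24 ± 0.11) lower and Emx1 (0.17 ± 0.072) higher at an unadjusted p under 0.05. The shares of all genes at that level were 3.11% lower and 4.88% higher, near the 1 of 33 in each direction here. The layer genes Cux2 (0.12 ± 0.088), Rorb (-0.12 ± 0.16), Fezf2 (-0.080 ± 0.11) and Tle4 (-0.096 ± 0.069) did not lie beyond about 1.5 errors. Lhx2, a LIM homeobox gene of upper-layer and hippocampal neurons, was at -0.21 ± 0.072.

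**Figure D3:**
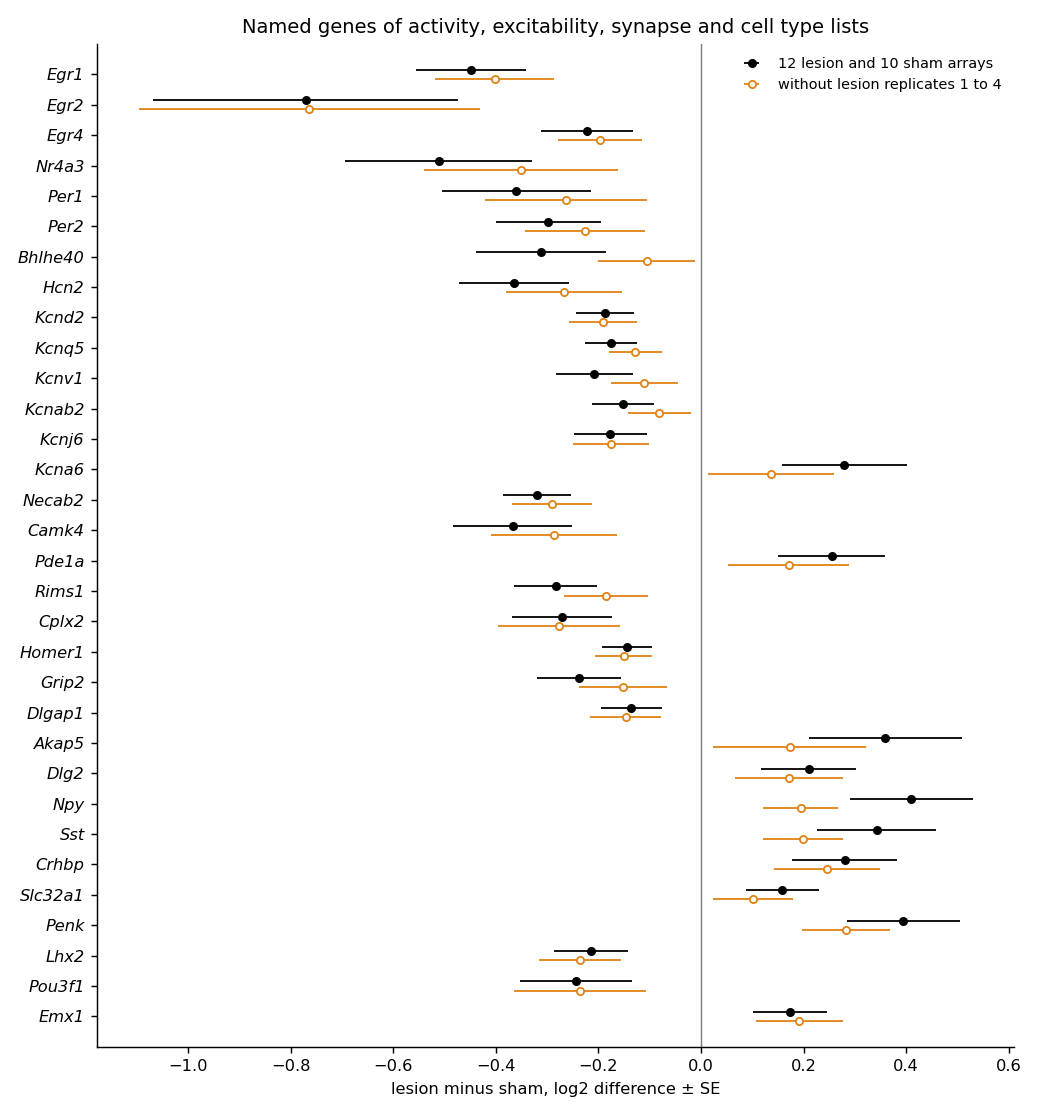
Lesion minus sham log2 difference with its SE for 32 named genes, over all 12 lesion and 10 sham arrays (black) and without lesion replicates 1 to 4 (orange). All 32 keep their sign, and Bhlhe40, Kcnv1, Kcna6, Akap5, Npy and Sst lie nearer 0 without those 4 arrays.

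A separate pattern lay in lesion replicates 1 to 4, where several genes stood far above every other array. Sprr1a, a small proline-rich protein that injured peripheral neurons make as they regrow, read 12.39, 11.96, 11.90 and 12.02 on these 4 arrays. The other 8 lesion arrays ran from 8.68 to 9.83 and the sham arrays from 8.23 to 9.63. The 4 arrays were thus apart by 2.07 from the next one, and 7 of the other 8 lesion arrays lay within the sham range, with replicate 12, at 9.83, just above it. Over all arrays the difference was 1.12 ± 0.44, and it was 0.15 ± 0.16 without the 4. The 4 arrays were set apart after their values were seen and are the highest for this gene. The smaller difference without them follows from that choice, and the same holds for Lgals3, Npy and Gadd45a below. On the deposited scale these arrays held 3819 to 5440 units, the other lesion arrays 388 to 937 and sham arrays 285 to 770. All 20 arrays of the TTX experiment lay between 391 and 1237 and all 63 neuroleptic arrays between 231 and 956, so the 4 arrays were the highest of the series. Their sample numbers, 36, 37, 42 and 43, enclose sham numbers 38 to 41, whose Sprr1a levels were 8.73 to 9.63. The labels do not set the 4 arrays apart from the other lesion arrays.

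Because Sprr1a carried the largest difference of the lists, its RefSeq promoter (GRCr8, 250 bases before to 50 after the start) is shown, with capitals for the AP-1 site TGANTCA, searched on both strands and present in 2453 of 33469 promoters (7.33%).
Sprr1a, chr2:180752576-180752875, minus strand: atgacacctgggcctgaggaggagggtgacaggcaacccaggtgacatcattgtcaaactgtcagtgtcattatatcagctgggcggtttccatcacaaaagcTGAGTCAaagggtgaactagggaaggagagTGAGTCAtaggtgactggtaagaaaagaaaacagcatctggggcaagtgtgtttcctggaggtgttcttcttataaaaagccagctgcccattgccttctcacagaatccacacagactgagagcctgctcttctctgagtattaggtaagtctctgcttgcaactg
The window held 2 such sites. AP-1 is the dimer of Fos and Jun family proteins.

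Lgals3, galectin-3, a lectin of activated microglia and macrophages, read 10.92, 11.12, 11.55 and 12.49 on the same 4 arrays. The other lesion arrays ran from 8.39 to 9.70 and sham arrays from 8.20 to 9.56, so 7 of the other 8 lay within the sham range and replicate 6, at 9.70, just above it. Its difference was 0.88 ± 0.38, and 0.11 ± 0.18 without the 4. Npy read 14.22, 14.19, 14.64 and 14.76 there, while the other lesion arrays ran from 13.59 to 13.98 and sham arrays from 13.37 to 13.83. The Npy difference of 0.41 ± 0.12 was 0.19 ± 0.073 without the 4, still higher but smaller. Gadd45a, a DNA damage and stress gene, read 11.58, 11.31, 11.16 and 11.14 on them, 10.37 to 10.96 on the other lesion arrays and 10.12 to 10.94 on sham arrays. It differed by 0.37 ± 0.12, and by 0.17 ± 0.10 without the 4.

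**Figure D4:**
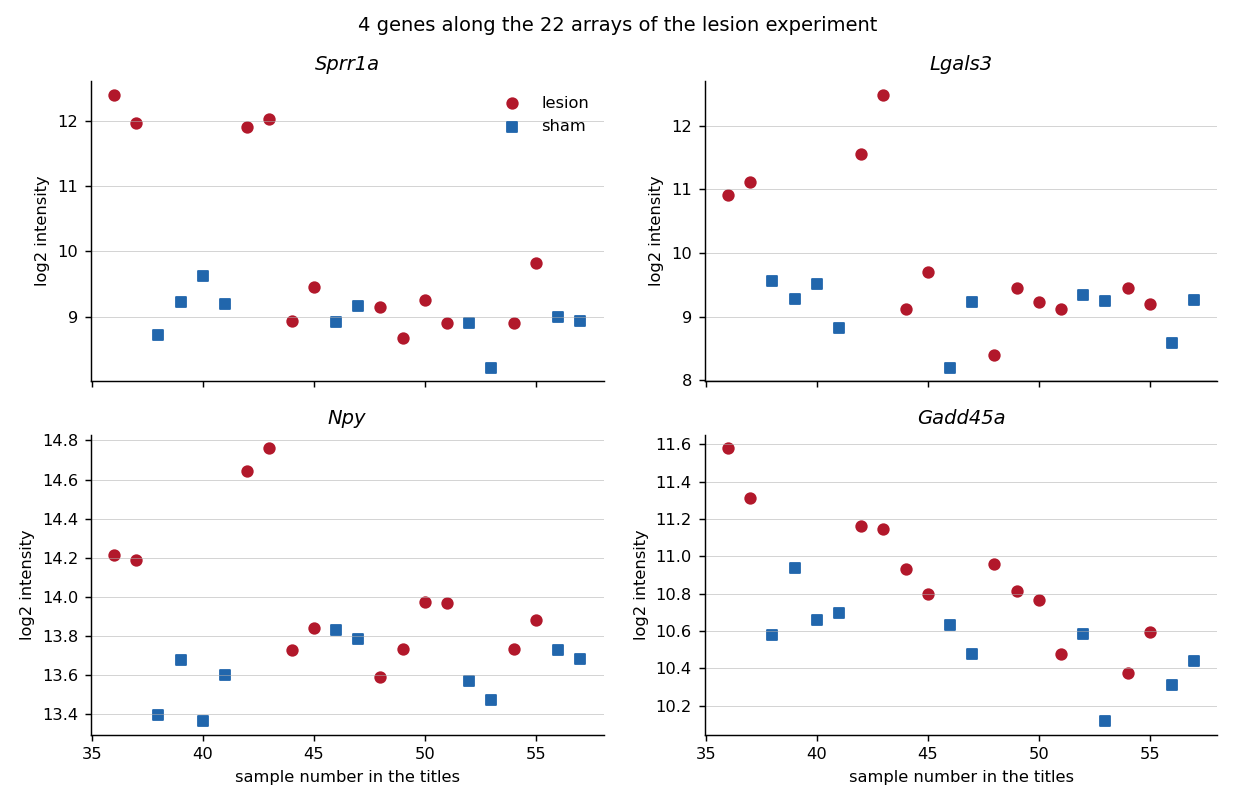
Log2 intensity of Sprr1a, Lgals3, Npy and Gadd45a on the 12 lesion arrays (red circles) and 10 sham arrays (blue squares), along the sample numbers of the titles. Sample numbers 36, 37, 42 and 43 are the 4 highest in each panel, with sham arrays 38 to 41 between them.

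Further genes of this pattern were chosen after their values were seen. In 69 of 18625 probe sets (0.370%) these 4 arrays were the 4 highest of 22, and in 71 (0.381%) the 4 lowest. The higher ones included the adrenergic receptor Adra1b, at 12.75 to 12.86 on the 4, 11.30 to 12.20 on the other lesion arrays and 11.56 to 12.07 on sham arrays. The microglial and macrophage glycoprotein Gpnmb was at 10.84 to 11.18 on the 4, 9.61 to 10.33 on the other lesion arrays and 9.67 to 10.33 on sham arrays. The metalloproteinase inhibitor Timp1 was at 10.56 to 11.85 on the 4, 8.81 to 9.97 on the other lesion arrays and 8.21 to 10.17 on sham arrays. Strip2, Prss35, the lipid droplet coat gene Plin2, the basement membrane peroxidase Pxdn and the BH3-only death gene Hrk shared the pattern. Among the lower ones, Gabrd, the delta subunit of extrasynaptic GABA receptors, was at 12.21 to 12.29 on the 4, 12.62 to 12.99 on the other lesion arrays and 12.57 to 13.10 on sham arrays. Ttll11, Gypc, Kctd1, the receptor kinase Tyro3 and Neu2 were also lowest on these arrays. With these arrays left out, 0 probe sets were called by limma and 1165 had an unadjusted p under 0.05. Timp1 was at -0.0024 ± 0.24, Gpnmb at -0.063 ± 0.096, Gabrd at 0.038 ± 0.085 and Adra1b at 0.041 ± 0.11. Strip2 was at 0.11 ± 0.10 (0.50 over all arrays), Prss35 at 0.21 ± 0.16 (0.70) and Hrk at 0.063 ± 0.17 (0.49). Among the lower ones Gypc was at -0.076 ± 0.11 (-0.35), Kctd1 at -0.10 ± 0.050 (-0.23) and Tyro3 at -0.060 ± 0.053 (-0.19). These genes were picked because the 4 arrays were their highest or lowest. The shift of their differences without those arrays follows from that choice.

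Glial genes were set beside this pattern. Gfap, the astrocyte filament that marks reactive astrocytes, read 14.86, 14.79, 15.02 and 15.28 on the 4 arrays, 14.10 to 14.77 on the other lesion arrays and 14.06 to 14.68 on sham arrays. Its difference was 0.18 ± 0.12, and 0.0039 ± 0.11 without the 4. The astrocyte list as a whole had 11 of 22 members higher and a median of 0.0070. Of 21 microglial and immune genes 14 were higher (median 0.049), and Lgals3, the lysosomal protease Ctss (0.23 ± 0.096), the receptor Trem2 (0.27 ± 0.13) and B2m (0.12 ± 0.055) were higher at an unadjusted p under 0.05. Among all genes 51.7% were higher, and 4.88% were higher at that level. The defining microglial receptors Csf1r (0.010 ± 0.079) and Cx3cr1 (-0.0078 ± 0.11) lay near 0. Without the 4 arrays Ctss was at 0.15 ± 0.10, B2m at 0.056 ± 0.059 and Trem2 at 0.31 ± 0.14. A second probe set of Aif1, below the tested range, ran from 5.00 to 8.40 on lesion arrays against 7.59 to 8.48 on sham arrays, while the tested one ran from 10.09 to 11.35 on lesion arrays against 9.90 to 10.82 on sham arrays.

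Oligodendrocyte and myelin genes were lower in 19 of 23 members, with a median of -0.12, and 0 were at an unadjusted p under 0.05. The median was -0.17 in the first set of arrays, 0.0049 in the second and -0.027 without the 4 arrays. Mog, a surface protein of mature myelin, was at -0.28 ± 0.15 over all arrays and at -0.11 ± 0.15 without the 4. Of 21 meningeal, fibroblast and choroid plexus genes 15 were lower, at a median of -0.13, with Igf2 at -0.55 ± 0.37. Leaving out single arrays moved that median between -0.29, without sham replicate 8, and -0.015, without lesion replicate 12. The median of this list was -0.22 in the first and -0.014 in the second set. Of 25 endothelial and mural genes 16 were lower (median -0.060), but the median was 0.0072 without the 3 arrays of low correlation and -0.0046 without lesion replicate 7 alone. Of its genes 3 were lower at an unadjusted p under 0.05: the smooth muscle actin Acta2 (-0.35 ± 0.13), the glucose transporter Slc2a1 (-0.17 ± 0.062) and the junction gene Esam (-0.18 ± 0.083). Among all genes 3.11% were lower at that level. The blood genes Hbb (0.0023 ± 0.18) and Alas2 (-0.10 ± 0.16) did not differ beyond their errors. The part that cell composition or dissection played in any gene above was not tested.

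Genes of energy and protein turnover had more members higher than lower, by small amounts. Of all 10152 genes 51.7% were higher. At an unadjusted p under 0.05, 4.88% of all genes were higher and 3.11% lower. Of 75 respiratory chain subunits 60 were higher (median 0.046), with 11 higher and 0 lower at an unadjusted p under 0.05. Ndufc2, of complex I, lay at 14.57, 14.80 and 15.06 on lesion arrays and at 14.58, 14.65 and 14.71 on sham arrays, with 10 of 12 lesion arrays above all sham arrays and a difference of 0.16 ± 0.052. Ndufb1 (0.20 ± 0.074), Ndufb8 (0.19 ± 0.086) and the ATP synthase inhibitor Atp5if1 (0.12 ± 0.057) were of similar size, while the catalytic ATP synthase subunits Atp5f1a (-0.0037 ± 0.059) and Atp5f1b (-0.046 ± 0.042) were not. Of 46 proteasome genes 35 were higher (median 0.050; 7 higher, 0 lower at that level), among them Psma4 (0.16 ± 0.051) and Psma2 (0.19 ± 0.062) of the core and Psmd4 (0.14 ± 0.049) and Psmc5 (0.14 ± 0.051) of the cap. Of 41 ribosomal protein genes 35 were higher (median 0.053; 4 higher, 1 lower), led by Rps3 (0.20 ± 0.076) and Rpl22 (0.16 ± 0.065). Rpl39 went the other way, at 9.05, 10.09 and 10.76 on lesion arrays against 10.26, 10.57 and 11.22 on sham arrays. In the first and second sets of arrays the list medians were 0.024 and 0.071 for respiratory chain genes. They were 0.0064 and 0.084 for proteasome and 0.018 and 0.069 for ribosomal genes, beside -0.0013 and 0.0094 for all genes. Without the 4 arrays the 3 medians were 0.065, 0.068 and 0.049 for respiratory chain, proteasome and ribosomal genes, and without the 3 arrays of low correlation they were 0.035, 0.023 and 0.027, all above the 0.0038 of all genes over all arrays.

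Candidate genes for schizophrenia were near 0 as a list, 12 of 21 higher with a median of 0.010. Dtnbp1, which encodes dysbindin, was at 0.14 ± 0.055, and a second probe set of it at 0.20 ± 0.097. Nrg1 (-0.18 ± 0.14) and its receptor Erbb3 (-0.19 ± 0.19) lay within 1.5 errors of 0. Of 24 genes of Akt, Gsk3 and beta-catenin signalling 0 were at an unadjusted p under 0.05, and Gsk3b was at -0.16 ± 0.080. Of 25 histone deacetylase and chromatin genes 19 were lower with 0 at that level, and of 34 sterol and fatty acid genes 21 were lower with 0. Of 20 cell death and DNA damage genes 12 were higher, and Gadd45a and Bcl2l2 (0.15 ± 0.069) were higher and Bcl2l1 (-0.16 ± 0.066) and Parp1 (-0.15 ± 0.053) lower at that level. Among all genes 4.88% were higher and 3.11% lower at that level.

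To ask whether lesion and TTX acted differently on the cortex, the 22 arrays were fitted jointly with the 20 of the TTX experiment, 11 TTX and 9 sham, and the TTX effect was subtracted from the lesion effect. Of 18625 probe sets 0 were called by limma (0%), and 1181 (6.34%) had an unadjusted p under 0.05. Positive differences, lesion effect above TTX effect, were led by Mapre1, at 0.21 for the lesion and -0.056 for TTX, a difference of 0.27 ± 0.063. The small GTPase Rab30 was at 0.31 for the lesion and -0.37 for TTX, Pdcd5 at 0.22 and -0.018, and Mak16 at 0.075 and -0.53. Negative ones were the sterol enzyme Cyp51, at -0.15 for the lesion and 0.16 for TTX, Zbtb42 at -0.13 and 0.43, Trmt44 at -0.27 and 0.39, and Hcn2 at -0.36 and 0.21. Their adjusted p ran from 0.623 to 0.705. Necab2 was at -0.32 for the lesion and 0.069 for TTX, and Gadd45a at 0.36 and -0.18. With sample number as a covariate in each experiment 4 probe sets were called, for Glis2, Mapre1, Scarb2 and Gadd45a, with adjusted p from 0.0212 to 0.0396, so whether single genes differ between the experiments depended on that term. In the lesion experiment alone, with no covariate, Gadd45a differed by 0.37 ± 0.12, and by 0.17 ± 0.10 without lesion replicates 1 to 4. Scarb2, a lysosomal membrane protein, was named after its value was seen.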

How the data were processed

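RNA of frontal cortex from 12 lesion and 10 sham arrays was compared. The authors deposited 1 linear intensity per probe set and array for 31099 probe sets, with software, background correction and summarisation not given in the sources used here. Deposited values had been scaled, with a mean after trimming 2% at each end of 2500.6 to 2500.7 on every array. There were no detection calls, so precision rests on how many arrays there are, and 0 pairs of arrays held identical values.

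The 57 control probe sets were left out. The rest were quantile-normalised over the arrays, values under a floor of 32 were set to 32, and log2 was taken. The 60% of probe sets with the highest mean entered a limma 3.58.1 fit (R 4.3.3) with no covariate and Benjamini-Hochberg adjustment. An adjusted p under 0.05 was called. The joint fit of lesion and TTX arrays used the same steps. The fit was tested on simulated data.

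Gene symbols came from the platform annotation: 20826 probe sets had 1 symbol, 436 several and 9780 none, and promoter sequences from RefSeq (GRCr8). A gene is given by its brightest tested probe set. Named genes were, in each direction, those of the 12 probe sets with the smallest p, which for Nfasc, Ncor1 and Ncoa3 were not the brightest of the gene, the first 4 tested genes of each of 40 lists with further members at an unadjusted p under 0.05, and 4 genes in each direction of the lesion minus TTX difference. The text names a selection of these, and genes outside the rule are said to be so. The comparison, the members and the lists were chosen with earlier results of these data known. Of the 40 lists, those whose median the text does not give lay between -0.065 and 0.064. Alternatives were values as deposited, other floors and filters, sample order, array weights, and leaving out arrays. Figures were drawn with matplotlib 3.10.9.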

Additional observations from a re-analysis of the deposited data

Results flagged for a closer look

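Sham values of 290 genes and list scores were screened for an array far from the other 9, and 19 were flagged, where chance flags about 1 in 20 groups. A list score is the median log2 value over the list, after the midpoint of each gene's lesion mean and sham mean is subtracted. Sham replicate 9, which also had a low mean correlation with the other arrays, was the highest of the sham arrays in the scores of oligodendrocyte and myelin genes (0.34), circadian clock genes (0.27), astrocyte genes (0.14) and neurotrophins and growth factors (0.14), and in Mobp (15.48) and S100b (16.41). It was the lowest in Nrn1 (14.71), Htr2c (11.07), Htr1a (7.97), Prss35 (8.51) and Psma4 (12.49). Sham replicate 8 was the lowest in Col1a1 (7.60), Igf2 (10.48) and Fgfr1 (11.52). Sham replicate 7 was the highest in the score of postsynaptic density genes (0.14) and in Dtnbp1 (12.61), and the lowest in Dlg2 (9.77). Pecam1 was lowest on sham replicate 5 (9.28) and Adra1b on sham replicate 10 (11.56).

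Rasa4, whose probe set lay below the range tested, differed by 1.003 on the log2 scale between lesion and sham arrays, with groups that did not overlap after quantile normalisation. The deposited intensities of the 63 neuroleptic arrays, 52.9 to 495, covered nearly the whole range of both groups.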

How the results depend on the processing

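No paired analysis was possible because the replicate numbers follow the order of samples in the series and pair no arrays. The count of called probe sets was 0 under each alternative except without a filter (1, Rasa4) and without lesion replicate 5 (1, Necab2), and ran from 0 to 1 over the fits that left out single arrays. Probe sets at an unadjusted p under 0.05 numbered 1179 to 1729 over those fits, with the lowest count without sham replicate 9 and the highest without lesion replicate 7, and 857 with 1 probe set per gene. With values as deposited they split into 644 higher and 756 lower, against 793 and 661 after quantile normalisation. The lesion minus TTX test called 4 probe sets with sample number as a covariate, with 2088 at an unadjusted p under 0.05; the cause was not tested. Without the arrays of low correlation the list medians were 0.019 for NMDA receptors, 0.017 for presynaptic genes, -0.0099 for axon growth genes, 0.0024 for Akt and Gsk3 signalling, 0.034 for glycolysis, -0.0075 for postsynaptic genes, -0.010 for sodium, calcium and HCN channels, -0.022 for calcium signalling, -0.030 for clock genes, 0.061 for interneuron genes and 0.078 for microglial genes. Without lesion replicates 1 to 4 they were -0.044 for activity-induced effectors, -0.063 for metabotropic glutamate genes and 0.061 for cell death genes. The striatal median was 0.070 without a filter, which adds genes, and the RGS median -0.0047 with the stricter one, which removes them. Leaving out single arrays, the medians ran from -0.052 to -0.0021 for metabotropic glutamate genes, from -0.033 to 0.014 for presynaptic genes and from -0.051 to -0.013 for axon growth genes. Single arrays also moved other medians by over 1.5 times, to 0.021 for ribosomal genes and 0.028 for respiratory chain genes without lesion replicate 7, to 0.015 for interneuron genes without sham replicate 1 and 0.086 without sham replicate 6, to -0.078 for immediate early genes without sham replicate 1, to -0.064 for myelin genes without sham replicate 9, to -0.018 for postsynaptic genes without lesion replicate 7, to 0.025 for microglial genes without lesion replicate 4 and 0.082 without sham replicate 1, to -0.061 for potassium channels without sham replicate 1 and -0.017 without sham replicate 5, to -0.061 for sodium, calcium and HCN channels without lesion replicate 6 and -0.024 without sham replicate 4, to -0.047 for clock genes without lesion replicate 3, and to -0.088 for glucocorticoid genes without lesion replicate 1 and -0.016 without sham replicate 9. No named gene at an unadjusted p under 0.05 changed sign in any alternative run. Without detection calls, low probe sets such as that of Rasa4 cannot be told from background.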
